A study of Mus musculus with 8 samples.

Results

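The genes described here are 9 that make, store, take up or break down catecholamines: Th, Ddc, Dbh, Pnmt, Gch1, Slc18a1, Slc18a2, Slc6a2 and Maoa. They are 9 of the 20641 mouse symbols that the array's accessions could be matched to, and they were read by 12 of 55617 probes. They were chosen by their role in the pathway, and every probe whose RefSeq accession maps to one of them was used. The samples were primary spheres, floating clusters that form when dissociated cells are kept in culture, grown from the superior mesenteric ganglion, a sympathetic ganglion of the abdomen. All donors were TH-MYCN hemizygotes on a 129+Ter/SvJcl background, 3 weeks old, and spheres were harvested on day 8. RA-free cultures (n = 4) were in RA (-) medium, without retinoic acid, and their partners (n = 4) were in RA (+) medium. Cells of each ganglion were divided between the media, so that every RA-free array has an RA (+) array of the same animal. All 8 cultures carry the TH-MYCN transgene, in which a rat Th promoter drives human MYCN in sympathetic cells, and no culture without it was analysed here. The transgene's own transcript was not measured by the probes described, and the concentration of retinoic acid is not given in the sources used here.

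Catecholamines are made from tyrosine. Tyrosine hydroxylase, the product of Th, turns tyrosine into L-DOPA in the rate-limiting step, using the cofactor tetrahydrobiopterin (BH4), whose synthesis starts with GTP cyclohydrolase 1, the product of Gch1. Aromatic L-amino acid decarboxylase (Ddc) then gives dopamine, dopamine beta-hydroxylase (Dbh) turns dopamine into noradrenaline inside the vesicle, and Pnmt methylates noradrenaline to adrenaline, mainly in chromaffin cells of the adrenal medulla. The vesicular monoamine transporters Slc18a1 (VMAT1) and Slc18a2 (VMAT2) load vesicles, Slc6a2 (the noradrenaline transporter) takes released noradrenaline back up, and monoamine oxidase A (Maoa) degrades it. Sympathetic neurons are noradrenergic and normally express most of this set.

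All 12 probes were well above background on all 8 arrays, so every value of the 9 genes below is a measured level. This does not hold for every gene of the other lists below. Levels are log2 intensities minus the log2 of that array's 75th percentile, and changes are RA-free minus RA (+) with the animal as a block in limma. Genes with a Benjamini-Hochberg adjusted p under 0.05 over 13539 tested genes are called. The media differed widely: 64.3% of all tested genes were called, 36.1% higher and 28.2% lower in RA-free spheres. Which of these 2 shares was larger depended on the scaling. Of the 9 genes, 4 were called higher (Th, Ddc, Slc18a2, Slc6a2), 3 were called lower (Dbh, Gch1, Slc18a1) and 2 were not called (Pnmt, Maoa). With 9 genes, 7 called is not far from that background, and nothing is read from the count. On 3 of the 9 genes every RA-free array was above every RA (+) array, and on 3 every RA-free array was below; over all tested genes 53.3% did not overlap between media, 29.5% higher and 23.8% lower. The median change of the 9 genes was 0.12, against 0.07 for all tested genes. Probes differ in brightness for reasons other than transcript amount, so levels are compared between media for one probe and not between genes.

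**Figure D1:**
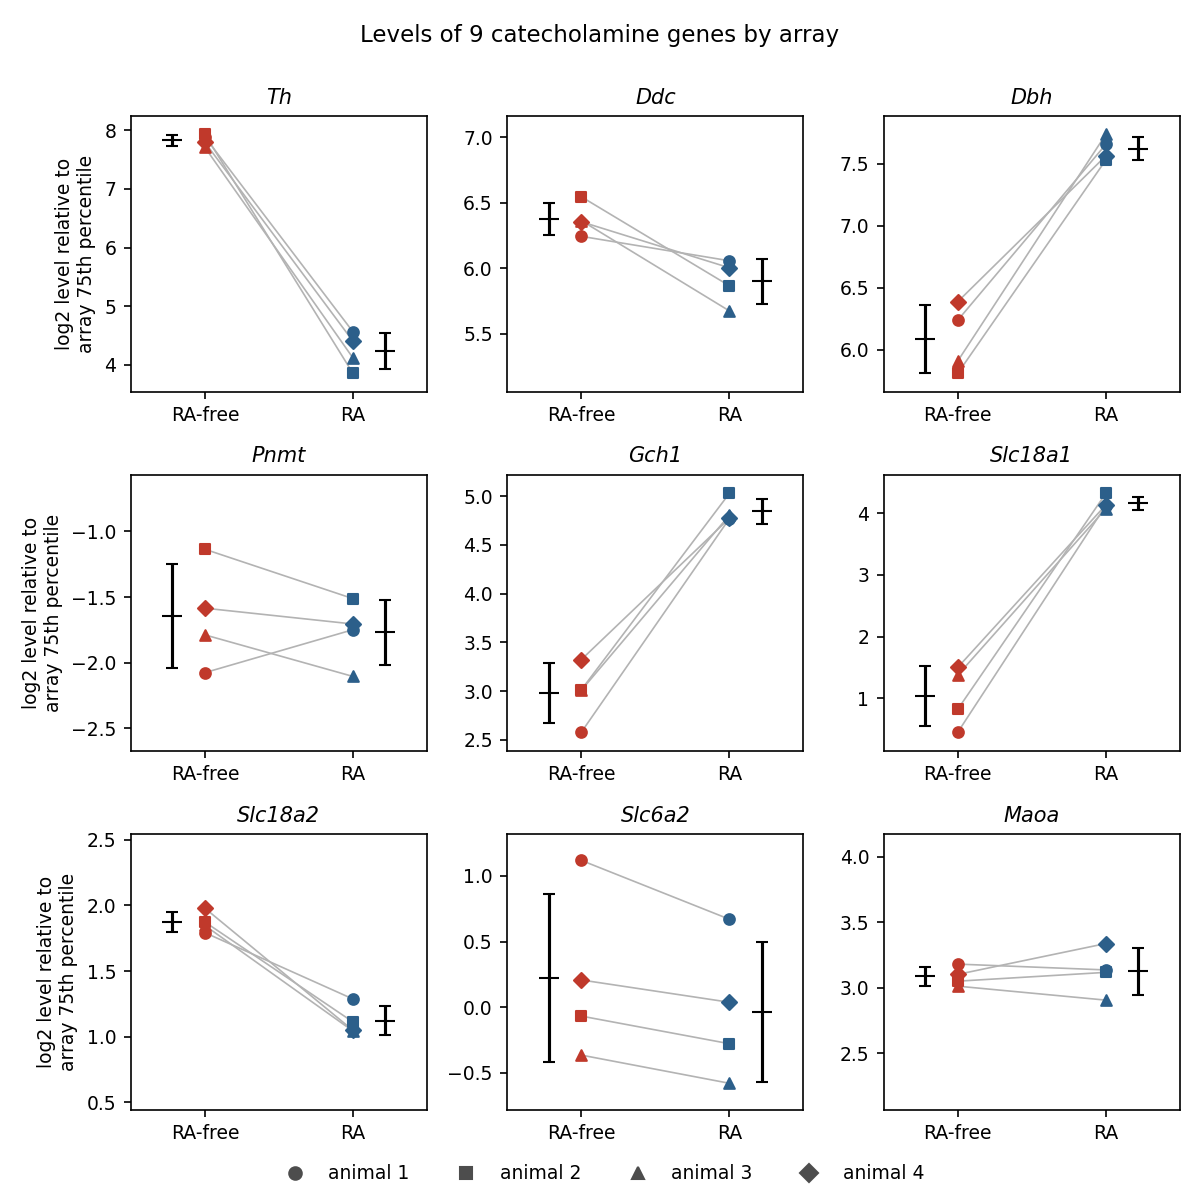
Level of each of the 9 genes on every array (log2 relative to the array's 75th percentile), RA-free on the left and RA (+) on the right, with grey lines joining the 2 cultures of an animal and black bars for mean ± SD (n = 4). Th, Ddc and Slc18a2 are higher on every RA-free array than on any RA (+) array, Dbh, Gch1 and Slc18a1 are lower on every RA-free array, and Pnmt, Slc6a2 and Maoa overlap; the vertical scale differs between panels and spans at least 2 log2 units.

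Promoter windows of the genes that moved most apart within the synthesis steps are shown here: Th, which rose, and Dbh and Gch1, which were lower in RA-free spheres. The RefSeq table (GRCm38.p6) holds windows for 6 of the 9 genes, and the 250 bases before the annotated start are printed 5′ to 3′ on the gene's strand. Capitals mark matches, on either strand, to 4 motifs: the cyclic AMP response element TGACGTCA, the E-box CANNTG bound by basic helix-loop-helix factors, the nuclear receptor motif AGGTCA that retinoic acid receptors share with other receptors, and the GATA motif AGATAA.
Th, chr7:142899996-142900245, minus strand: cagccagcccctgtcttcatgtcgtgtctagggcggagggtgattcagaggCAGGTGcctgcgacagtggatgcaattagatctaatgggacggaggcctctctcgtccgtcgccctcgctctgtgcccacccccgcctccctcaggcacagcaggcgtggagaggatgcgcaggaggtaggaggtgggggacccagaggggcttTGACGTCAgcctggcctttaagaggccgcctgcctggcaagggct
Dbh, chr2:27165257-27165506, plus strand: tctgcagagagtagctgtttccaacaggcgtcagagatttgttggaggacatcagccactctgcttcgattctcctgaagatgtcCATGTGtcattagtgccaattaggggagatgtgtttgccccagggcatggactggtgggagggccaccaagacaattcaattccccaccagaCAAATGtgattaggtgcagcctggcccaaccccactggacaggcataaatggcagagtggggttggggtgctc
Gch1, chr14:47189414-47189663, minus strand: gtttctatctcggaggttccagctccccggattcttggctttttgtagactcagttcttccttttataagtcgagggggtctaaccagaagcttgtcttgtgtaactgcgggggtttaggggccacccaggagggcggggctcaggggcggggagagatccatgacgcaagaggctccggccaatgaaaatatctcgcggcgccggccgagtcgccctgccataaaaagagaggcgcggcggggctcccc

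The Th window holds the cyclic AMP response element 45 to 38 bases before the start, a sequence found in 1.55% of the 32851 windows of this length in the table. It also holds 1 E-box, at 199 to 194 bases before the start, the Dbh window holds 2 E-boxes, at 165 to 160 and 73 to 68 bases, and the Gch1 window holds none of the 4 motifs. E-boxes occur in 66.2% of all windows, the nuclear receptor motif in 14.0% and the GATA motif in 9.99%. Among the other members' windows, the nuclear receptor motif matched once, on the opposite strand of 1 of the 2 Ddc windows at 73 to 68 bases. The Slc18a2 window held 1 GATA match on the opposite strand at 230 to 225 bases. These matches describe letters only; binding was not measured.

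Th, at the rate-limiting step, had the largest rise of the set. Its level was 7.88, 7.93, 7.71 and 7.79 in RA-free spheres of animals 1 to 4, against 4.57, 3.86, 4.12 and 4.41 in their RA (+) partners. The RA-free arrays lay close together and far above every RA (+) array. The mean was 7.83 ± 0.10 in RA-free spheres and 4.24 ± 0.31 in RA (+) spheres (SD, n = 4 each), a change of 3.59 (SE 0.14, limma adjusted p = 5.34e-05), or 12.03-fold. Only 20 of the 13539 tested genes rose by more. In these bulk samples, a changed number of cells of a type and changed RNA per cell cannot be told apart. This holds for Th and for every gene below. Animal 2 had the largest rise, 4.07, and animal 1 the smallest, 3.32.

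Ddc, the second enzyme, was higher in RA-free spheres by a much smaller amount. Its brighter probe read 6.24, 6.54, 6.36 and 6.35 in RA-free spheres and 6.06, 5.87, 5.68 and 6.004 in RA (+) spheres. The media did not overlap, but the gap in animal 1 was 0.19 and in animal 3 it was 0.69. The change was 0.48 (SE 0.11, limma adjusted p = 0.0118), or 1.39-fold. The second, dimmer probe, designed to another Ddc transcript accession, gave 0.80 (SE 0.12, adjusted p = 0.00274), with 2.86 ± 0.12 in RA-free spheres and 2.06 ± 0.26 in RA (+) spheres (SD, n = 4 each). The size for the brighter probe depended on the scaling: it was 0.066 (adjusted p = 0.618) with quantile normalization of the processed signal and 0.098 (adjusted p = 0.393) with normexp and quantile normalization. The second probe stayed called under both, at 0.69 (adjusted p = 0.00578) and 0.66 (adjusted p = 0.000282). The call of the brighter probe was also lost without animal 2 (0.41, adjusted p = 0.0510) and with spike-in scaling (0.62, SE 0.28, adjusted p = 0.0625). Under spike-in scaling the change was larger, but the fit gave every member this same, larger SE.

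Dbh, which makes noradrenaline from dopamine, went the other way. Its level was 6.24, 5.81, 5.91 and 6.39 in RA-free spheres, against 7.66, 7.53, 7.74 and 7.56 in RA (+) spheres. Every RA-free array was below every RA (+) array, and it was the RA-free arrays that spread more. The change was −1.53 (SE 0.13, limma adjusted p = 0.000271), so the RA-free level was 0.345 times that of RA (+). In intensity units the probe still averaged 17859 ± 3867 in RA-free spheres, against 55689 ± 5085 in RA (+) spheres (SD, n = 4 each), and none of its spots was saturated.

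Pnmt, the adrenaline enzyme, had an intensity of 83.8 ± 18.5 in RA-free spheres and 85.5 ± 23.0 in RA (+) spheres (SD, n = 4 each). Its level was −2.08, −1.14, −1.79 and −1.58 in RA-free spheres and −1.75, −1.51, −2.10 and −1.70 in RA (+) spheres, and the media overlapped throughout. The change of 0.12 (95% confidence interval −0.21 to 0.45, limma adjusted p = 0.455) was positive in 3 of 4 animals. The interval includes both a rise and a small fall.

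Gch1, the entry enzyme of BH4 synthesis, was lower in RA-free spheres, in contrast to Th, the hydroxylase that uses BH4. Its brighter probe read 2.58, 3.02, 3.01 and 3.32 in RA-free spheres, against 4.77, 5.03, 4.80 and 4.77 in RA (+) spheres. No RA-free array reached any RA (+) array, with the widest gap, −2.19, in animal 1 and the narrowest, −1.45, in animal 4. The change was −1.86 (SE 0.13, limma adjusted p = 0.000185), leaving 0.275 times the RA (+) level. The second probe of Gch1 gave −2.13 (SE 0.11, adjusted p = 0.000119).

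The 2 vesicular transporters moved in opposite directions. Slc18a1 (VMAT1), the form typical of endocrine and chromaffin cells, stood at 0.45, 0.82, 1.38 and 1.502 in RA-free spheres, against 4.12, 4.32, 4.07 and 4.13 in RA (+) spheres. Its change was −3.12 (SE 0.21, limma adjusted p = 0.000153), leaving 0.115 times the RA (+) level; 189 tested genes fell by more. The RA-free arrays were more spread, with animals 3 and 4 higher than animals 1 and 2, while the RA (+) arrays lay close together.

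Slc18a2 (VMAT2), the form typical of neurons, was higher in RA-free spheres. Its brighter probe read 1.79, 1.87, 1.85 and 1.98 in RA-free spheres, against 1.29, 1.11, 1.04 and 1.049 in RA (+) spheres, with no overlap. The change was 0.75 (SE 0.09, limma adjusted p = 0.00102), or 1.68-fold, and the dimmer probe gave 0.54 (SE 0.10, adjusted p = 0.00495).

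Slc6a2, the noradrenaline transporter, differed more between animals than between media. Its level was 1.12, −0.068, −0.37 and 0.21 in RA-free spheres and 0.67, −0.28, −0.58 and 0.037 in RA (+) spheres. Animal 1 was highest and animal 3 lowest in both media, and the media overlapped. Within each animal the RA-free culture was higher, by 0.45, 0.21, 0.21 and 0.17. The paired change of 0.26 (SE 0.08, limma adjusted p = 0.0303), or 1.20-fold, was the smallest called in the set. It did not pass without the animal block (adjusted p = 0.546), with scaling to detected probes alone (0.15, adjusted p = 0.161), with spike-in scaling (0.41, adjusted p = 0.251) or without animal 1, 2 or 4 (adjusted p = 0.106, 0.0792 and 0.0685). With no filter on dim probes it did not pass either (adjusted p = 0.0665).

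Maoa, the only breakdown enzyme among the 9, read 3.18, 3.05, 3.01 and 3.10 in RA-free spheres and 3.14, 3.12, 2.91 and 3.34 in RA (+) spheres. The values interleaved, and 2 animals were higher and 2 lower without RA. The change was −0.038 (95% confidence interval −0.25 to 0.17, limma adjusted p = 0.717), which bounds the change on either side. The sign turned with spike-in scaling (0.11) and without animal 4 (0.028).

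**Figure D2:**
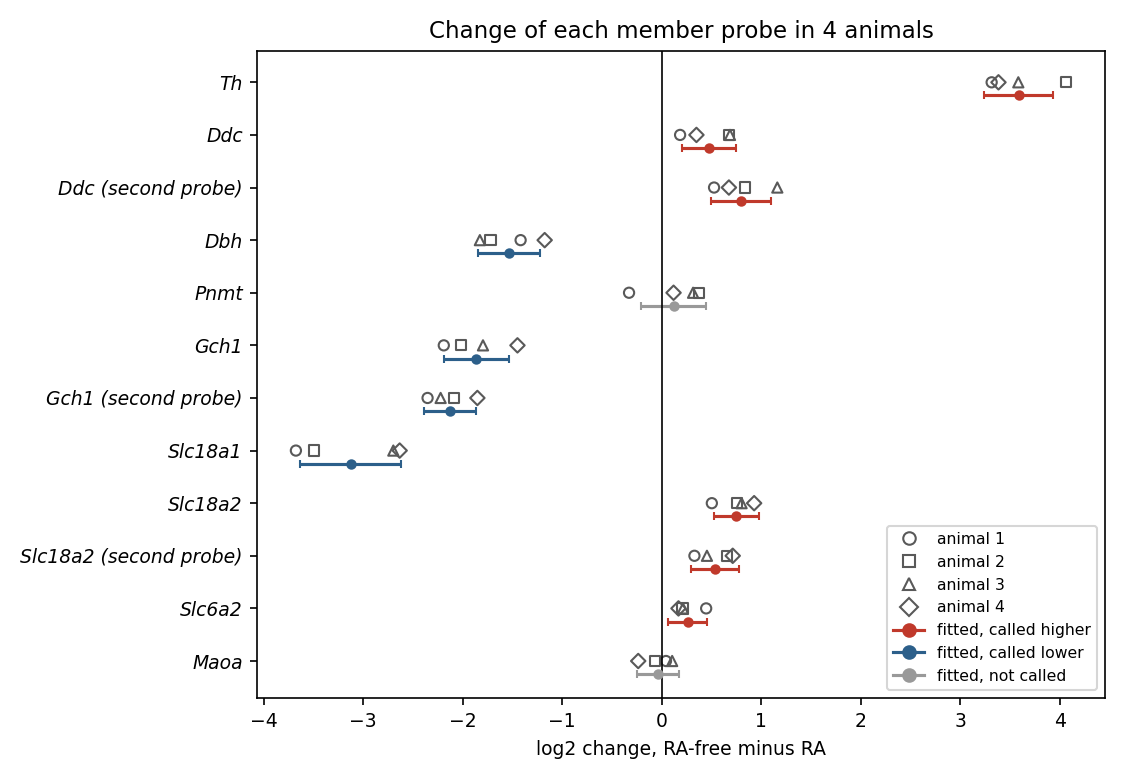
Log2 change (RA-free minus RA (+)) of all 12 probes, with an open symbol for each animal and, just below, the fitted change with its 95% confidence interval. Th at 3.59 and Slc18a1 at −3.12 mark the extremes, both probes of Ddc, Gch1 and Slc18a2 lie on the same side of 0, and the intervals of Pnmt and Maoa include 0.

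Differences between members within one array do not depend on the factor by which each array is scaled (quantile normalization can still move them), so 4 pairs of genes were compared in this way. The change of Th exceeded that of Ddc by 3.13, 3.39, 2.90 and 3.04 in animals 1 to 4. It exceeded that of Dbh by 4.73, 5.78, 5.41 and 4.56, and that of Gch1 by 5.51, 6.08, 5.38 and 4.83. The within-array ratio of Th to Dbh was therefore 34.8-fold higher in RA-free spheres, and that of Th to Gch1 was 43.7-fold higher. The ratio of Slc18a2 to Slc18a1 was 14.7-fold higher, with a log2 difference of 3.87 ± 0.40 (SD, n = 4 animals). All 4 pairs had the same sign in all 4 animals. Each gave an exact two-sided sign-flip p = 0.125, which is the smallest that 4 animals allow, and p = 0.125 after adjustment over the 4 pairs, so this design could not pass the threshold. The ratios show unequal change of the 2 genes and not the amount of either.

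By distance between centred profiles over the 8 arrays, the 3 tested genes most like Th were Adra2c (root mean square distance 0.17), Myo1e (0.30) and Galnt3 (0.30), with changes of 3.61, 3.71 and 3.38. Those most like Slc18a1 were Mctp1 (0.13), Minar2 (0.16) and Pcdh7 (0.17), with changes of −3.19, −3.10 and −2.94. All these profiles share the same 8 arrays and a wide gap between media.

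Other genes of the pathway were examined in 6 groups by role. Of 35 listed, 34 had a probe here and 25 passed the filter of being well above background on at least 4 arrays, and 8 of these were called higher and 12 lower, which is 80.0% against 64.3% of all tested genes, with a median change of −0.26 against 0.07 for all tested genes. Both directions were called in 4 of the 6 groups below. Of those 20 calls, 9 were kept under all 13 other processing choices tried, 3 of them higher and 6 lower. Another, Aldh1a1, was kept under the 12 that tested it.

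In BH4 metabolism, 2 of 7 genes were called higher and 3 lower. Gchfr, the feedback regulator that binds GTP cyclohydrolase 1, was at 0.64 ± 0.46 in RA-free spheres and 1.86 ± 0.35 in RA (+) spheres (SD, n = 4 each), a change of −1.22 (SE 0.10), and Spr, sepiapterin reductase, the last step of BH4 synthesis, changed by −1.10 (SE 0.11). Gch1, Gchfr and Spr were thus each lower in all 4 animals. Pts, the enzyme between Gch1 and Spr, was not called at −0.28 (SE 0.13, adjusted p = 0.108), though it was under 3 other processing choices. In regeneration of BH4, Pcbd1 was called lower (−0.35, SE 0.09) and Pcbd2 higher (0.33, SE 0.10), calls that some other processing choices ended, and Qdpr was not called (0.097, adjusted p = 0.282; below 0 under 3 other scalings).

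Among genes that serve Dbh, Cyb561, the cytochrome that passes electrons from ascorbate into the vesicle, was at 5.05 ± 0.12 in RA-free spheres and 6.83 ± 0.09 in RA (+) spheres (SD, n = 4 each). Its change of −1.79 (SE 0.07, limma adjusted p = 5.65e-05) had the same sign as that of Dbh. Atp7a, which delivers copper to secreted enzymes, changed by −0.94 (SE 0.11), while Slc31a1, which imports copper into the cell, rose by 1.21 (SE 0.14). Slc23a2, an ascorbate importer, was not called (−0.34, adjusted p = 0.0504; called under 5 other processing choices), and Moxd1, a relative of Dbh, was above background on 1 array of each medium and not tested.

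The other aromatic amino acid hydroxylases and monoamine carriers were mostly dim. No array had Tph1 well above background. Tph2, the brain form of tryptophan hydroxylase, was called higher at 0.60 (SE 0.18, adjusted p = 0.0312) but was higher in 3 of 4 animals only, and 6 of the 13 other processing choices ended the call. The dopamine transporter gene Slc6a3 and the organic cation transporter genes Slc22a2 and Slc22a3 were not well above background on any array. The serotonin transporter gene Slc6a4 was not called (0.10, adjusted p = 0.808, below 0 under 3 other processing choices). Slc29a4, a plasma membrane monoamine transporter, changed by −0.60 (SE 0.14), a call lost with spike-in scaling.

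Of 8 tested genes of breakdown besides Maoa, 3 were called higher and 4 lower. Aldh2, an aldehyde dehydrogenase that acts on the aldehydes made by monoamine oxidase, changed by −1.38 (SE 0.12), with −0.63 ± 0.28 in RA-free spheres and 0.75 ± 0.14 in RA (+) spheres (SD, n = 4 each). Aldh1a1, an aldehyde dehydrogenase that also makes retinoic acid, rose by 1.25 (SE 0.17), and was well above background on 3 of 4 RA (+) arrays. Its rise was 0.36 with normexp and quantile normalization. Akr1b3, aldose reductase, rose by 0.77 (SE 0.11, and 0.59 by another probe), and Maob, the other monoamine oxidase, by 0.53 (SE 0.13). Aldh3a2, another aldehyde dehydrogenase, changed by −0.45 (SE 0.08) and Akr1a1, an aldehyde reductase, by −0.26 (SE 0.07), while Aldh9a1 was not called. Sult1a1 was not well above background. The call of Maob was lost without animal 2, 3 or 4, and those of Aldh3a2 and Akr1a1 with spike-in scaling, Akr1a1 also without animal 1, 2 or 4 and without the filter on dim probes.

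Carriers of aromatic amino acids, the source of tyrosine, gave 1 call higher and 2 lower among 3 tested. Slc7a8 had a change of −2.27 (SE 0.34), with RA-free arrays at −1.64 ± 1.03 against 0.63 ± 0.24 on RA (+) arrays (SD, n = 4 each), and was −1.60 with normexp and quantile normalization. Slc7a5 rose by 0.38 (SE 0.09) and its partner Slc3a2 changed by −0.26 (SE 0.08), calls that were each lost under some other processing choices. Slc16a10 was well above background on 3 RA-free arrays and on no RA (+) array, at least 1.68-fold higher without RA (such bounds set the dim group at the lowest signal called well above background on each array, or at the probe's own signal where higher), and was not tested.

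**Figure D3:**
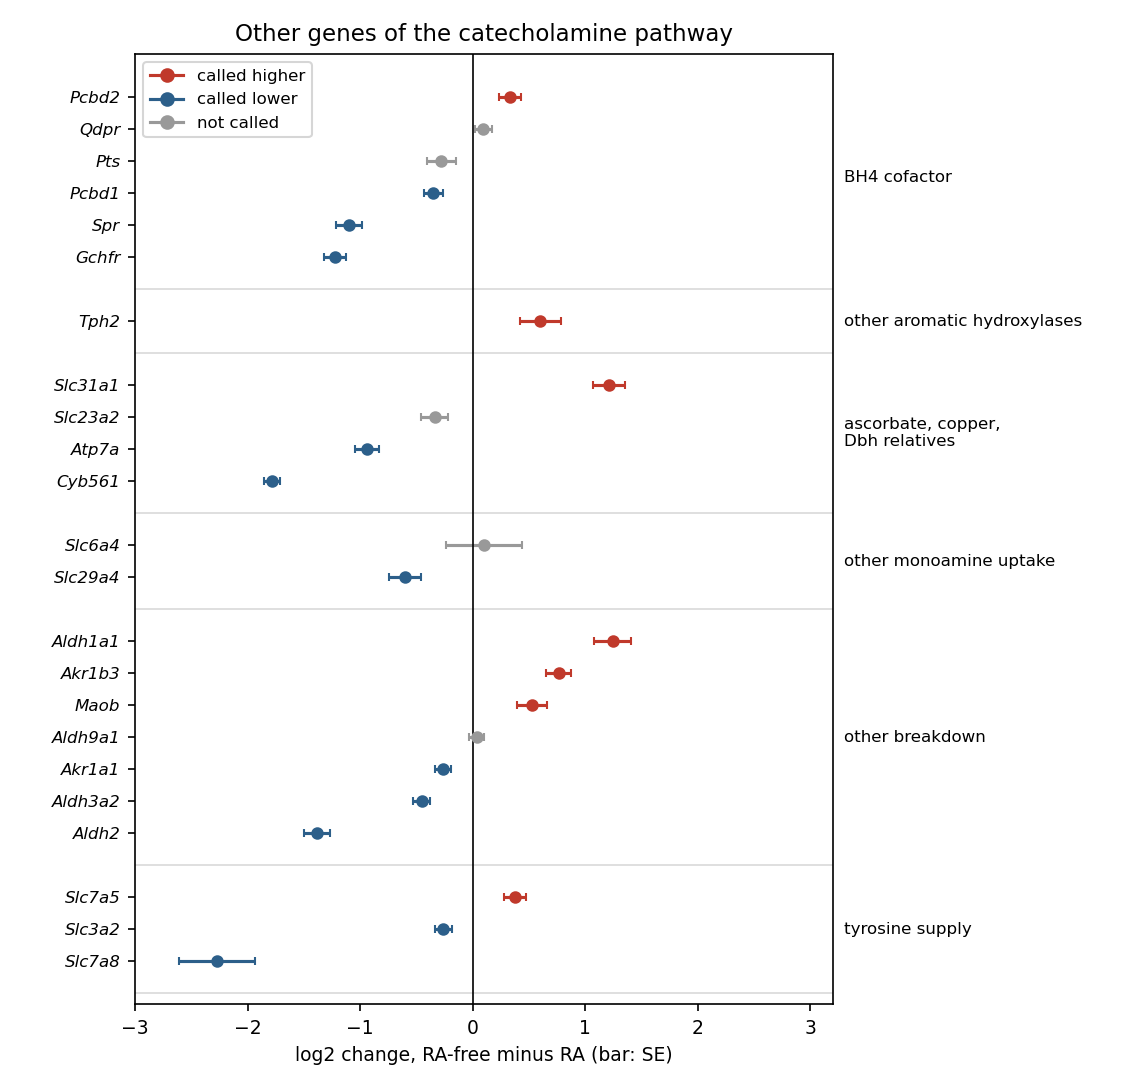
Fitted log2 change (RA-free minus RA (+)) with its SE for 23 of the 25 tested genes of the pathway that are not among the 9, grouped by role and sorted within each group; colour shows the call. Calls of both directions, 7 higher and 11 lower, are drawn, with Cyb561 at −1.79 and Slc7a8 at −2.27 lowest and Slc31a1 at 1.21 and Aldh1a1 at 1.25 highest.

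Transcription factors that regulate these genes in sympathetic and chromaffin cells are part of the context. Of 14 listed, all tested, 8 were called higher and 2 lower. That is 71.4% called, against 64.3% of all tested genes (36.1% higher and 28.2% lower), and nothing is read from the count. The largest changes were in Gata2 (2.11, SE 0.13; 1.505 with normexp and quantile normalization), Isl1 (2.00, SE 0.12), Insm1 (1.64, SE 0.08) and Nr3c1, the glucocorticoid receptor (1.00, SE 0.09). Those called lower were Egr1 (−0.65, SE 0.10) and Hand2 (−0.39, SE 0.07).

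Markers of the cell types such spheres could hold also differed between media. The counts for these lists stand beside 36.1% of all tested genes called higher and 28.2% called lower, and nothing is read from them. Of 12 sympathetic neuron markers, all tested, 9 were called lower and 1, Elavl4, higher (0.62, SE 0.10). The summed linear level of this list, in units of the array's 75th percentile, ranged from 968 to 1013 on RA-free arrays and from 1483 to 1633 on RA (+) arrays. Such sums weight the brightest probes most and are compared only between media within a list. Prph, the neuronal intermediate filament peripherin, changed by −5.20 (SE 0.37). Of 12 genes listed as chromaffin markers, 8 were called lower and 1, Cartpt, higher (1.54, SE 0.11). Whether sympathetic neurons also express the genes of this list was not tested. Penk was well above background on no RA-free array and passed the filter through RA (+) alone. In the main processing it was at least 302-fold lower, bounded as for Slc16a10. Chrnb4 changed by −4.83 (SE 0.38) and Chrna3 by −4.21 (SE 0.22). With normexp and quantile normalization these falls were smaller, with log2 changes of −5.76 for Penk, −3.80 for Chrnb4 and −2.81 for Chrna3. For Penk this is a smaller fall than the bound, which therefore holds for the main processing only. The summed level of the chromaffin list was 490 to 536 on RA-free arrays and 292 to 363 on RA (+) arrays. Cartpt alone made up 338 to 424 of it on RA-free arrays and 92.3 to 177 on RA (+) arrays. The other chromaffin markers summed to 94.1 to 152 on RA-free arrays and 162 to 222 on RA (+) arrays, so the direction turned without Cartpt, a sum added after seeing the data.

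Schwann and satellite glia markers summed to 25.8 to 33.6 on RA-free arrays and 45.3 to 52.2 on RA (+) arrays; of 12 tested, 6 were called lower and none higher, and Erbb3 and Mal were not well above background on any array. Immune markers summed to 14.9 to 17.1 on RA-free arrays and 19.3 to 23.8 on RA (+) arrays, with 3 of 5 tested called lower (Aif1, Adgre1 and Itgam) and Ptprc, Cd14, Lyz2 and Tyrobp not well above background on any array. Without Itgam the immune sums overlapped, at 2.77 to 3.06 on RA-free arrays and 2.25 to 3.91 on RA (+) arrays. Fibroblast markers (9.85 to 14.2 on RA-free arrays, 10.1 to 14.0 on RA (+) arrays) had 1 called higher (Col1a2) and 4 lower (Col3a1, Dcn, Postn and Fap) of 8, and endothelial markers (9.02 to 10.1 on RA-free arrays, 8.71 to 11.2 on RA (+) arrays) had 1 called lower (Pecam1) of 5. Dcn was well above background on no RA-free array and passed the filter through RA (+) alone. In the main processing Dcn was at least 1.64-fold lower, bounded as for Slc16a10. Lum, Pdgfra, Cdh5, Tek and Emcn were not well above background on any array. Adrenal cortex markers, which matter for carry-over of adrenal tissue with its chromaffin cells, summed to 24.9 to 31.5 on RA-free arrays and 19.8 to 26.1 on RA (+) arrays. Of these, 2 of 5 tested were called higher (Star and Fdx1), while Cyp11a1, Cyp11b1, Cyp11b2, Hsd3b1 and Mc2r were not well above background on any array. The part of these differences in the changes of the 9 genes was not tested.

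**Figure D4:**
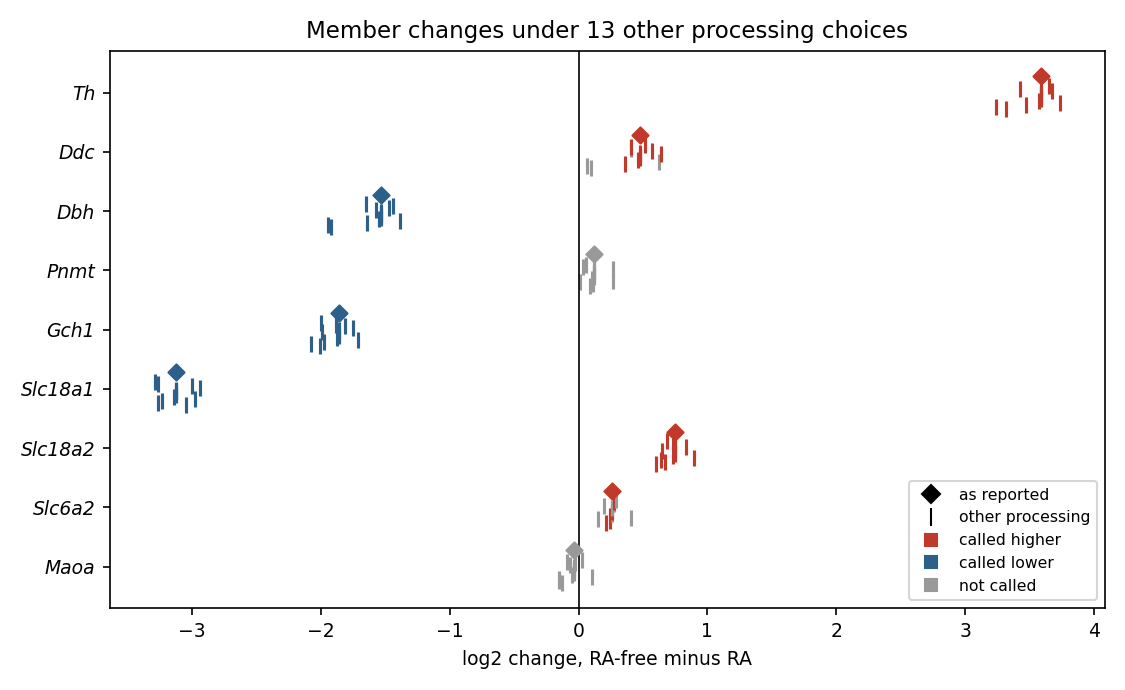
Log2 change (RA-free minus RA (+)) of each of the 9 genes as reported (diamonds) and under 13 other processing choices (ticks), coloured by call. Th, Dbh, Gch1, Slc18a1 and Slc18a2 keep side and call under all of them, Ddc and Slc6a2 lose the call under some, and Pnmt and Maoa are never called.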

How the data were processed

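RNA of 8 sphere cultures, 4 per medium, was labelled with Cy3, per the labels' protocols, from 40 or 200 ng; which array received which amount is not given. The 8 arrays shared 1 slide and 1 scan, and the authors read each spot's intensity with Agilent Feature Extraction 11.5.1.1, per the file headers. The main processing used its processed signal as written, with no further background correction before scaling between arrays. RA-free arrays lay in slide columns 2 and 4 and RA (+) arrays in columns 1 and 3, so slide column and medium cannot be told apart. The authors also deposited a log2 table, which matched the scanner values (lowest correlation 0.9999) after centring each probe over the 8 arrays; its exact scaling stays unknown. Its column medians were −0.073, 0.010, 0.17 and 0.20 for RA-free arrays 1 to 4, and −0.23, −0.22, 0.017 and −0.014 for RA (+) arrays 1 to 4.

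The 75th percentile of the processed intensity was 228 to 306 and 48.5% to 55.3% of non-control spots were well above background, none saturated. On the first principal component, with 81.7% of the variance, RA-free array 1 lay at 42.3, the other RA-free arrays at 59.5 to 66.2 and the RA (+) arrays at −61.3 to −52.3. Outlier spots were left out, log2 intensity minus the array's 75th percentile was averaged per probe, and probes well above background on at least 4 arrays were kept. Accessions were matched to the RefSeq gene table of GRCm38.p6, naming 27206 probes. The brightest probe of a symbol was used, and second probes were fitted across all tested probes. limma 3.58.1 in R 4.3.3 was fitted with the animal as a block, and was tested on simulated data. The pairing comes from the series' design text; deviations from the medium's mean correlated at 0.52, 0.30, 0.19 and 0.33 for animals 1 to 4. The number of arrays limits the precision.

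Members, lists and tests were chosen with earlier results of these data known. Text names all members, all genes of lists of up to 7, otherwise up to 4 called genes with the largest change and any gene a count of 5 or fewer needs, and the 3 nearest profiles of Th and Slc18a1. Other scalings, filters, probe choices, the unpaired fit and leaving out each animal were tried. Some genes that this rule would name are counted in their lists but not reported here.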

Additional observations from a re-analysis of the deposited data

Results flagged for a closer look

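In the 24 groups of 4 arrays formed by the 12 probes and both media, 2 held an array far from the other 3, where chance alone gives about 1 in 20. The dimmer Ddc probe read 1.67 on RA (+) array 3, below the other RA (+) arrays at 2.18 to 2.21. The brighter Gch1 probe read 5.03 on RA (+) array 2, above the other RA (+) arrays at 4.77 to 4.80.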

How the results depend on the processing

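Of 13 other processing choices, Th (3.24 to 3.73), Dbh (−1.94 to −1.39), Gch1 (−2.08 to −1.72), Slc18a1 (−3.29 to −2.94) and Slc18a2 (0.60 to 0.90) kept direction and call under all, and the 4 pair differences kept their sign under the 10 run for them. Normexp used the median spot signal, a choice made after seeing the data. Ddc lost its call with normexp and quantile normalization (0.098), quantile normalization (0.066), spike-in scaling (0.62) and without animal 2 (range leaving out each animal 0.40 to 0.57). Slc6a2 lost its call with the 75th percentile of detected probes (0.15), spike-in scaling (0.41), no filter on dim probes (0.26) and no replicate block, that is without the pairing (0.26), and over the left-out animals ranged from 0.20 to 0.29. Maoa turned positive with spike-in scaling (0.11) and without animal 4 (range −0.086 to 0.028). Qdpr and Aldh9a1 turned negative with normexp and quantile normalization (−0.074 and −0.017), quantile normalization (−0.10 and −0.076) and the 75th percentile of detected probes (−0.015 and −0.073). Slc6a4 turned negative with that last scaling (−0.0090) and without animal 3 (−0.062) or 4 (−0.19; range leaving out each animal −0.19 to 0.51). Spike-in scaling called 3062 genes higher and 1905 lower in place of 4885 and 3820, 2 members higher and 6 other pathway genes lower. It moved the median change of all genes to 0.22 and that of detected-probe scaling was −0.042, against 0.07. Leaving out each animal gave 4079 to 4663 genes higher, 2 to 4 members higher (2 without animal 2), 3 members lower and 5 to 7 other pathway genes higher (5 without animal 2, 3 or 4). Dropping the block called 4462 genes higher and 3560 lower, and ended no other member's call. The causes were not tested.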
